A study of Mus musculus with 6 samples.

Results

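The genes described are 10 sensors of RNA and DNA and the proteins that relay their signal, taken by symbol from a list of the pathway: Ddx58, Ifih1, Dhx58, Mavs, Tlr7, Eif2ak2, Adar, Cgas, Ikbke and Tbk1. All 10 were found among the 46983 genes of the count files, and all 10 passed the filter on low counts. RNA depleted of ribosomal RNA had been sequenced from naive CD4 T cells, the lymph node T cells that have not met antigen, taken from male mice by a sort of live cells whose gates included TCRb+, CD4+ and CD44-. Every mouse carried the floxed Cmtr1 fl/fl alleles. The control group (n = 2 libraries) had genotype Cmtr1 fl/fl CD4cre -, and the group labelled Cmtr1 cKO (n = 4 libraries) had genotype Cmtr1 fl/fl CD4cre +, in which the CD4 promoter drives Cre recombinase from the thymocyte stage on, in the CD8 lineage too. No control carried Cre, so an effect of Cre itself and of Cmtr1 loss cannot be told apart. CMTR1 is the enzyme that adds a methyl group to the ribose of the nucleotide next to the mRNA cap.

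RIG-I-like receptors are cytosolic helicases that bind viral or misplaced RNA. RIG-I binds short RNA ends with a triphosphate or an incompletely methylated cap, so the cap methylation made by CMTR1 is one of the marks by which a cell's own RNA escapes it. RIG-I and MDA5 pass the signal to the mitochondrial adaptor MAVS, and cGAS, which binds DNA, signals through STING. Both routes meet at the kinases TBK1 and IKK-epsilon, which phosphorylate IRF3 and lead to type I interferon. Interferon in turn raises the transcription of several sensors, RIG-I and MDA5 among them.

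Motifs known from interferon signalling occur in the promoters of some members. RefSeq promoter windows on GRCm38.p6 (250 bases before to 50 bases after each annotated start) were at hand for 8 of the 10 members, Dhx58 and Tlr7 having none in the table used. The core of the interferon-stimulated response element, GAAA followed by any 2 bases and GAAA, on either strand, was found in the windows of 3 of these 8 genes, against 3.44% of all 32851 windows and 12 of the 27 interferon-stimulated genes with a window. Here and below the lists are counted by gene and the background by window. The 8 members had 10 windows and the 27 interferon-stimulated genes 34, so the units are unlike. The 3 matches are shown 5′ to 3′ on the gene's strand with the element in capitals, and all of them lie just past the annotated start, their first base at position 3 (Ddx58), 33 (Ifih1) and 19 (Eif2ak2) of the transcribed strand.
Ddx58, chr4:40239804-40239833, minus strand: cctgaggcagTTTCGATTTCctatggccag
Ifih1, chr2:62646206-62646233, minus strand: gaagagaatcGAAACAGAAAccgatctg
Eif2ak2, chr17:78882535-78882564, minus strand: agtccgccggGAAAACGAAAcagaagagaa
A second interferon motif is the gamma-activated site (TTC, any 3 bases, GAA), searched on either strand. It was found for 2 of the 8 members with a window, Adar and Eif2ak2. Of the 27 interferon-stimulated genes with a window 4 held it, as did 8.3% of all windows. Adar has 3 windows, and its match lies in the one whose start is 15696 bases inside the gene. Ikbke and Cgas, both called different between the genotypes, held neither motif in their windows. The windows of Mavs and Tbk1, which were not called, held neither motif as well. The 100 bases before the RefSeq start of Ikbke and of Cgas are shown for comparison. The RefSeq start of Ikbke lies 43 bases inside the gene as GENCODE bounds it, so 43 of its 100 bases fall in the gene as bounded there, while for Cgas both annotations give the same start.
Ikbke, chr1:131279564-131279663, minus strand: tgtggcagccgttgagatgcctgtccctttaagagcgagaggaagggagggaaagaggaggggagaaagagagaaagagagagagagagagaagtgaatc
Cgas, chr9:78443238-78443337, minus strand: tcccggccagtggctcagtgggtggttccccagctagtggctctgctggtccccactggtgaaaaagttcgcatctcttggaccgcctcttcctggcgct
These matches describe letters in a window and were not tested as binding sites.

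The libraries held 9513874 to 11949838 reads assigned to genes. Values are given as CPM, reads relative to library depth after edgeR's trimmed mean of M values (TMM) scaling. Cmtr1 itself stood at 11.2 and 11.4 CPM in controls 1 and 2, and at 16.0, 19.8, 14.6 and 7.57 CPM in the libraries labelled Cmtr1 cKO 1 to 4 (edgeR adjusted p = 0.461, log2 fold change 0.36 ± 0.31, SE). The sources used here do not name the exon that Cre removes, and 34.9% of the exon bases of Cmtr1 are shared with the overlapping gene Gm28043, so the genotype labels could not be checked by this count. Each direction given is therefore between libraries as they were labelled. Uniquely mapped reads outside annotated exons made up 37.2% and 34.0% in the controls and 52.3%, 51.6%, 46.7% and 38.0% in Cmtr1 cKO 1 to 4 (p = 0.133 by an exact permutation test, two-sided, 0.0667 being the lowest p possible with 15 splits). Cd4, the defining marker of these cells, had 755 to 864 CPM in the 6 libraries, while the marker genes of plasmacytoid dendritic cells, B cells, macrophages and dendritic cells summed to at most 90.6, 394, 21.7 and 76.0 CPM.

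Between the genotypes 3 of the 10 members changed (quasi-likelihood test of edgeR, Benjamini-Hochberg adjusted across the 12748 tested genes). The kinase gene Ikbke and the RNA receptor gene Tlr7 rose, and the DNA sensor gene Cgas fell. Of all genes tested 11.4% were called, 4.66% higher and 6.77% lower in Cmtr1 cKO. Over all genes the calls, 594 higher and 863 lower, went to 1940 in each direction without Cmtr1 cKO 4 and to 39 to 272 higher and 154 to 472 lower without any one of the other libraries. All 4 Cmtr1 cKO libraries lay above both controls for 3 members (Tlr7, Adar and Ikbke) and below both for 1 (Cgas), against 18.2% and 20.8% of all genes tested (39% in either direction). The median log2 fold change of the members was 0.15, and that of all genes tested was -0.00047. The median of the members was 0.26 without control 1 and 0.069 without control 2. Without control 1 or without control 2 the test called 0 members, with 5 and 3 at an unadjusted p under 0.05. Without Cmtr1 cKO 2 or 3 it called Ikbke alone, without Cmtr1 cKO 1 Ikbke and Tlr7, and without Cmtr1 cKO 4 Ifih1 in addition to the 3.

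**Figure D1:**
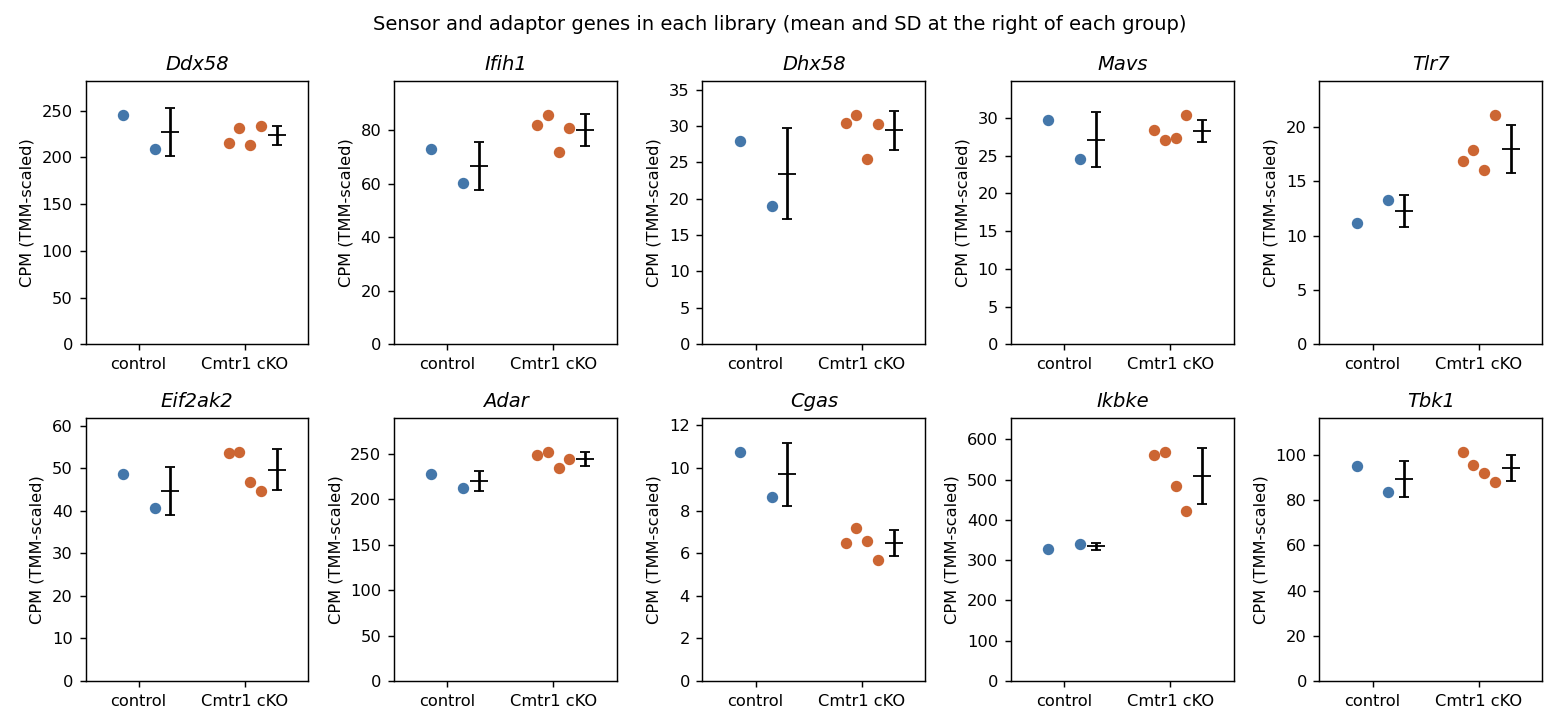
TMM-scaled CPM of each of the 10 genes (vertical axis, from 0) in the 2 control libraries (blue) and the 4 libraries labelled Cmtr1 cKO (orange), 1 point a library, with the group mean and SD as a bar at the right. Tlr7, Adar and Ikbke lie higher in all 4 Cmtr1 cKO libraries than in both controls, Cgas lies lower in all 4, and the points of the other 6 genes overlap.

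Per length, Ikbke was the most abundant member and Cgas the least. Levels are given as FPKM, here CPM per kilobase of the merged exons of all annotated transcripts. The mean over all 6 libraries was 49.99 FPKM for Ikbke (36.5 to 63.0), 31.9 for Ddx58 (29.6 to 34.8), 29.1 for Adar (26.2 to 31.1) and 23.7 for Tbk1 (21.4 to 25.9). A lower tier with overlapping ranges held Eif2ak2 at 9.38 FPKM (7.94 to 10.5), Ifih1 at 9.25 (7.39 to 10.5), Dhx58 at 8.38 (5.82 to 9.62) and Mavs at 8.35 (7.35 to 9.08). At this length Ifih1 lay above Dhx58 and Mavs in every library, narrowly for Mavs in control 1 (8.93 against 8.89). The order of the other pairs changed between libraries and is not resolved. The ranges of Ddx58 and Adar overlap too. Tlr7 had 3.93 FPKM (2.74 to 5.16) and Cgas 1.83 FPKM (1.38 to 2.61). With the longest protein-coding transcript as the length, an alternative added after the data were seen, Ikbke (139 FPKM), Ddx58, Adar (40.04) and Tbk1 (30.7) were again the highest and Tlr7 (4.12) and Cgas (1.86) the lowest, and Ifih1 (13.8) and Dhx58 (11.4) moved ahead of Eif2ak2 (11.1).

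Ddx58 encodes RIG-I, the helicase that binds RNA ends (chromosome 4, 40203773 to 40239828, minus strand, GRCm38, 18 merged exon blocks). Control 1 had 245 CPM and control 2 had 209 CPM, and Cmtr1 cKO 1 to 4 had 216, 231, 214 and 233 CPM. Every Cmtr1 cKO library lay between the 2 controls. The log2 fold change was -0.023 ± 0.081 (SE) with a 95% interval of -0.20 to 0.155 (edgeR adjusted p = 0.875), on 2021 to 2803 reads a library. A change of the size seen for Ikbke lies outside that interval. Without control 1 the sign turned (0.11, adjusted p = 0.557), as it did without Cmtr1 cKO 3 (0.012, adjusted p = 0.951).

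Ifih1 encodes MDA5, which binds long double-stranded RNA (chromosome 2, 62595798 to 62646255, minus strand). The controls had 72.9 and 60.3 CPM and Cmtr1 cKO 1 to 4 had 81.7, 85.4, 71.7 and 80.8 CPM. Of these only Cmtr1 cKO 3 lay below the higher control. The log2 fold change was 0.26 ± 0.096 (SE, 95% interval 0.052 to 0.47) and was not called (edgeR adjusted p = 0.0944). It was called without a filter on low counts (0.27, adjusted p = 0.0413) and without Cmtr1 cKO 4 (0.26, adjusted p = 0.0447), and without control 1 and control 2 it was 0.42 and 0.15 (adjusted p = 0.109 and 0.519).

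Dhx58 encodes LGP2, the family member that lacks the signalling domains and modulates the other receptors (chromosome 11, 100694884 to 100704271, minus strand). The controls stood furthest apart on the log2 scale for this gene among the members, by 0.55, at 27.9 and 19.0 CPM. Cmtr1 cKO 1 to 4 had 30.4, 31.5, 25.5 and 30.3 CPM, so that 1 of the 4 overlapped the controls. The log2 fold change of 0.32 ± 0.15 (SE, 95% interval 0.0039 to 0.64) was not called (edgeR adjusted p = 0.158). Against control 2 alone it was 0.64 and against control 1 alone 0.091, neither of them called (adjusted p = 0.0784 and 0.767).

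Mavs, the adaptor on the mitochondrial surface that RIG-I and MDA5 engage (chromosome 2, 131234063 to 131248025, plus strand), stood at 29.7 and 24.6 CPM without Cre and at 28.4, 27.1, 27.3 and 30.4 CPM with it (Cmtr1 cKO 1 to 4). The groups overlapped, and the log2 fold change was 0.059 ± 0.11 (SE, 95% interval -0.17 to 0.29, edgeR adjusted p = 0.741). It was 0.21 without control 1 and -0.057 without control 2 (adjusted p = 0.375 and 0.84).

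Ikbke encodes IKK-epsilon, a kinase that acts beside TBK1 on IRF3 and, in T cells, has other substrates (chromosome 1, 131254343 to 131279606, minus strand, 20 merged exon blocks). The 2 controls gave 329 and 341 CPM, while Cmtr1 cKO 1 to 4 gave 559.9, 568, 484 and 422 CPM. All 4 Cmtr1 cKO libraries lay above both controls, by the widest margin in Cmtr1 cKO 1 and 2 and the narrowest in Cmtr1 cKO 4. The log2 fold change was 0.60 ± 0.11 (SE, 95% interval 0.35 to 0.85), a 1.52-fold rise with an edgeR adjusted p of 0.00911. Of the 14 alternative analyses 12 called it, and with a single control left it was not called (0.59 and 0.64, adjusted p = 0.107 and 0.105 without control 1 and 2).

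The outside-exon share, which includes opposite-strand reads, was, like Ikbke, highest in Cmtr1 cKO 1 and 2 and lowest of the 4 in Cmtr1 cKO 4. With that share in the model the log2 fold change of Ikbke was 0.27, still called (edgeR adjusted p = 0.0298). Ikbke also had the largest part of its counted exon bases outside its longest protein-coding transcript, 63.9% of 9018 bases, against 1.87% (Cgas) to 45.1% (Ddx58) in the other members, so that much of the sequence counted for Ikbke belongs to other annotated transcripts. Their part in the rise was not tested.

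**Figure D2:**
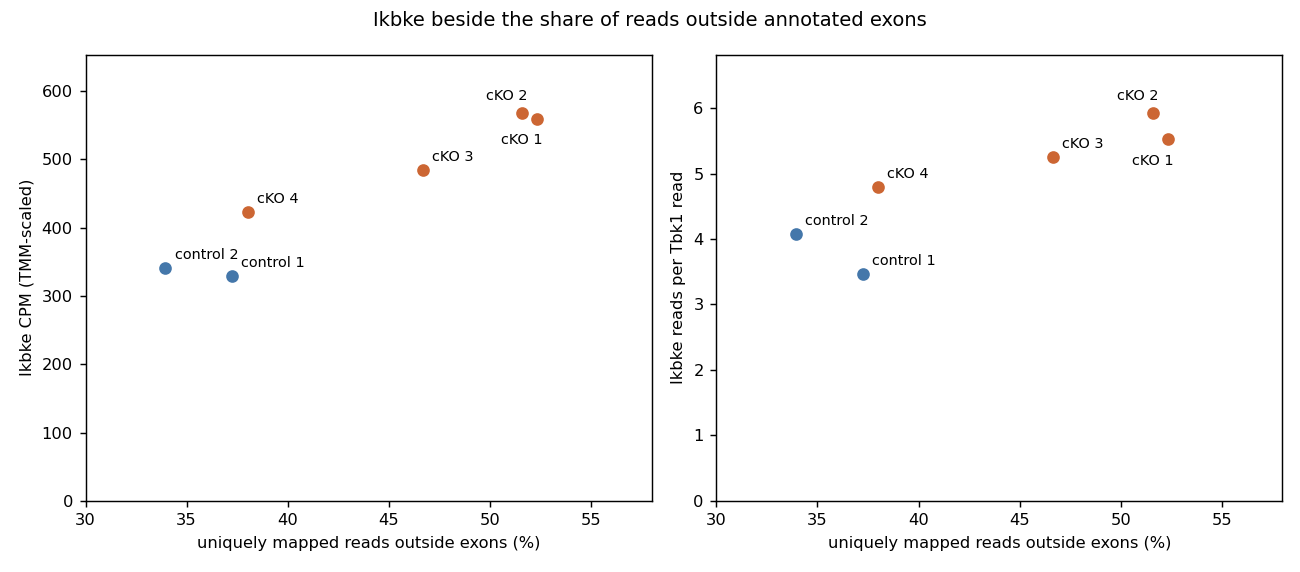
Ikbke in each of the 6 libraries against the percentage of uniquely mapped reads outside annotated exons of the counted strand, as TMM-scaled CPM (left) and as Ikbke reads per Tbk1 read (right), controls in blue and libraries labelled Cmtr1 cKO in orange. Cmtr1 cKO 4, at 38.0% outside exons, lies near control 1 at 37.2% on the horizontal axis and above it at 422 against 329 CPM.

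Tbk1, the kinase that RIG-I-like receptors and STING both activate (chromosome 10, 121546455 to 121586787, minus strand), was not called. The controls had 95.04 and 83.8 CPM and Cmtr1 cKO 1 to 4 had 101, 95.9, 92.0 and 88.1 CPM. The groups overlapped, and the log2 fold change was 0.076 ± 0.082 (SE, 95% interval -0.10 to 0.26, edgeR adjusted p = 0.557). It was 0.18 without control 1, 0.0019 without control 2 and -0.083 with the outside-exon share in the model (adjusted p = 0.352, 0.995 and 0.659). The ratio of the reads of the 2 kinase genes does not depend on how the libraries are scaled. There were 3.46 and 4.07 Ikbke reads per Tbk1 read in the controls and 5.52, 5.93, 5.26 and 4.796 in Cmtr1 cKO 1 to 4. The log2 ratio differed by 0.51, from 1.91 ± 0.17 (SD, n = 2) to 2.42 ± 0.13 (SD, n = 4), with p = 0.0667 by exact permutation (two-sided), the smallest p this design allows.

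**Figure D3:**
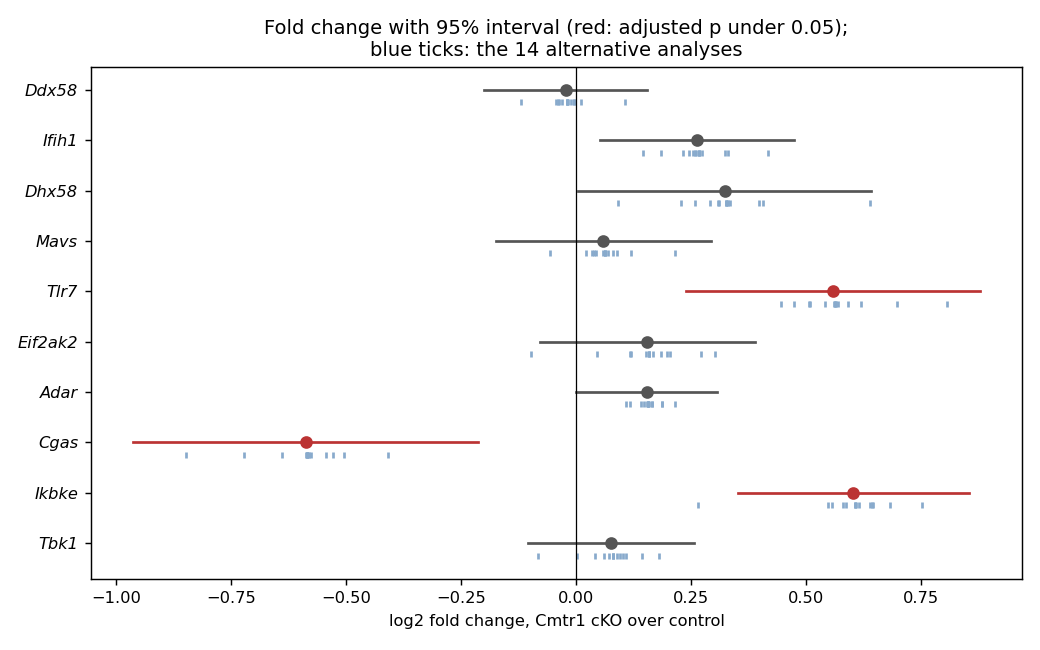
Log2 fold change of each of the 10 genes, Cmtr1 cKO over control (horizontal axis), with its 95% interval from edgeR, in red where the adjusted p was under 0.05, and as blue ticks the values from the 14 alternative analyses. Tlr7 and Ikbke lie right of 0 and Cgas left of 0 under every alternative, and the ticks of Ddx58, Mavs, Eif2ak2 and Tbk1 fall on both sides.

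Tlr7 encodes the endosomal receptor for single-stranded RNA (chromosome X, 167304929 to 167330558, minus strand), known best from B cells and plasmacytoid dendritic cells. Its level was low, at 11.2 and 13.3 CPM without Cre against 16.8, 17.9, 16.1 and 21.1 CPM in Cmtr1 cKO 1 to 4, on 128 to 245 reads a library. The groups did not overlap. The log2 fold change was 0.56 ± 0.15 (SE, 95% interval 0.24 to 0.88), a 1.47-fold rise (edgeR adjusted p = 0.0333). The call ended without control 1, control 2, Cmtr1 cKO 2 or Cmtr1 cKO 3 (adjusted p = 0.222, 0.128, 0.0647 and 0.0528) and on unstranded counts (adjusted p = 0.0501), at log2 fold changes of 0.45 to 0.70.

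Markers of the cells best known for Tlr7 went in both directions. The 9 B cell markers summed to 378 and 394 CPM without Cre and to 296, 336, 292 and 294 CPM in Cmtr1 cKO 1 to 4, most of it Ighm. The 7 plasmacytoid dendritic cell markers summed to 87.3 and 90.6 CPM and to 82.0, 87.5, 81.2 and 87.4 CPM, most of it Pacsin1, while Siglech reached at most 0.787 CPM (control 1), Klk1 was at 0 in 4 libraries and Cox6a2 in 3. Relative to the control mean, the median over the B cell markers was -0.25, 0.36, -0.57 and -0.56 on the log2 scale in Cmtr1 cKO 1 to 4, and that over the plasmacytoid dendritic cell markers 0.085, -0.17, -0.048 and 0.18. Their part in the higher Tlr7 count was not tested. In bulk RNA, fewer cells of a type and less RNA per cell cannot be told apart. Other endosomal receptor genes were near or under the filter: Tlr8 had reads in control 2 alone, Tlr9 had 0.172 to 0.787 CPM, and Tlr3 had 0.388 to 1.20 CPM (edgeR adjusted p = 0.308, log2 fold change 0.74 ± 0.47, SE). A count of 0 allows up to 3 reads by counting error alone.

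Eif2ak2 encodes PKR, the kinase that stops translation when it binds double-stranded RNA (chromosome 17, 78852564 to 78882573, minus strand). The controls stood at 48.5 and 40.6 CPM, and Cmtr1 cKO 1 to 4 at 53.6, 53.8, 46.7 and 44.6 CPM. The groups overlapped, and the log2 fold change was 0.16 ± 0.11 (SE, 95% interval -0.079 to 0.39, edgeR adjusted p = 0.347). With the outside-exon share in the model it turned to -0.098 (adjusted p = 0.694), and it was 0.30 without control 1 and 0.046 without control 2 (adjusted p = 0.244 and 0.88).

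Adar encodes the enzyme that edits adenosine to inosine in double-stranded RNA and so keeps a cell's own RNA from MDA5 and PKR (chromosome 3, 89715022 to 89753446, plus strand). The controls had 228 and 212 CPM and Cmtr1 cKO 1 to 4 had 249, 252, 234 and 244 CPM. All 4 lay above both controls, by a small margin. The log2 fold change of 0.15 ± 0.070 (SE, 95% interval 0.00086 to 0.31) was not called (edgeR adjusted p = 0.16).

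Cgas encodes the enzyme that binds cytosolic DNA and makes the messenger that opens STING signalling (chromosome 9, 78430526 to 78443237, minus strand). It was the least abundant member, and went from 10.8 and 8.64 CPM without Cre to 6.48, 7.17, 6.56 and 5.68 CPM in Cmtr1 cKO 1 to 4, on 62 to 123 reads a library. The groups did not overlap. It fell by 0.59 ± 0.17 (SE) on the log2 scale, a fold of 0.666, with a 95% interval of -0.96 to -0.21 and an edgeR adjusted p of 0.0478, close to the threshold of 0.05. The call ended in DESeq2 (adjusted p = 0.09), on unstranded counts (0.0543), without ribosomal RNA and mitochondrial genes (0.0513), and without control 1, control 2 or Cmtr1 cKO 1, 2 or 3 (adjusted p = 0.317, 0.143, 0.0943, 0.0774 and 0.109), always with the same sign.

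Marker sums of CD8 T and NK cells, dendritic cells and B cells were lower in every Cmtr1 cKO library than in both controls, as Cgas was. Those of plasmacytoid dendritic cells and of macrophages and monocytes overlapped between the groups. Markers of CD8 T and NK cells (8 genes, 7 of them detected in control 1 and all 8 in the other libraries) summed to 91.1 and 77.4 CPM without Cre and to 35.5, 36.0, 35.8 and 41.3 CPM with it, and the 7 dendritic cell markers, mostly Cd74 and H2-Aa, to 65.7 and 76.0 against 40.2, 53.2, 33.8 and 37.9 CPM. The CD8 T and NK cell sums were mostly Prf1, at a mean of 41.9 CPM without Cre and 10.9 with it, and Cd8b1, at 22.2 and 17.1. Ncr1 (0.180 and 0.254 CPM) and Klrb1c (0.0486 and 0.137), both under the filter, went the other way. The part of these markers in the lower Cgas count was not tested. On the strand opposite to Cgas the gene Gm8093 overlaps 201 of its exon bases. Reads on that strand were 3 to 9 in number, most in Cmtr1 cKO 4, and 4.11% to 12% of the reads on both strands. The strand-specific count leaves them out.

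Of the 10 members 8 were lower in control 2 than in control 1, by 0.099 (Adar) to 0.55 (Dhx58) on the log2 scale, and Tlr7 and Ikbke were higher. Of 37 interferon-stimulated genes 35 were lower in control 2, all but Ifit2 and Isg15, against 49.7% of all genes tested. The median of these 37 genes, relative to the control mean, was 0.24 in control 1 and -0.24 in control 2 on the log2 scale, and 0.28, 0.26, 0.20 and 0.37 in Cmtr1 cKO 1 to 4. Control 1 lay among the Cmtr1 cKO libraries on this list, and control 2 lay below all of them. The controls also differed in macrophage and monocyte markers (8 genes), which summed to 21.7 CPM in control 1 and 6.51 CPM in control 2, and to 7.04, 8.07, 6.24 and 5.16 CPM in Cmtr1 cKO 1 to 4. Lyz2 had 11.2 and 2.33 CPM and C1qa 2.36 and 0.388 CPM in controls 1 and 2, and Fcgr1 was at 0 in all libraries but control 1. Their part in the control difference was not tested.

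**Figure D4:**
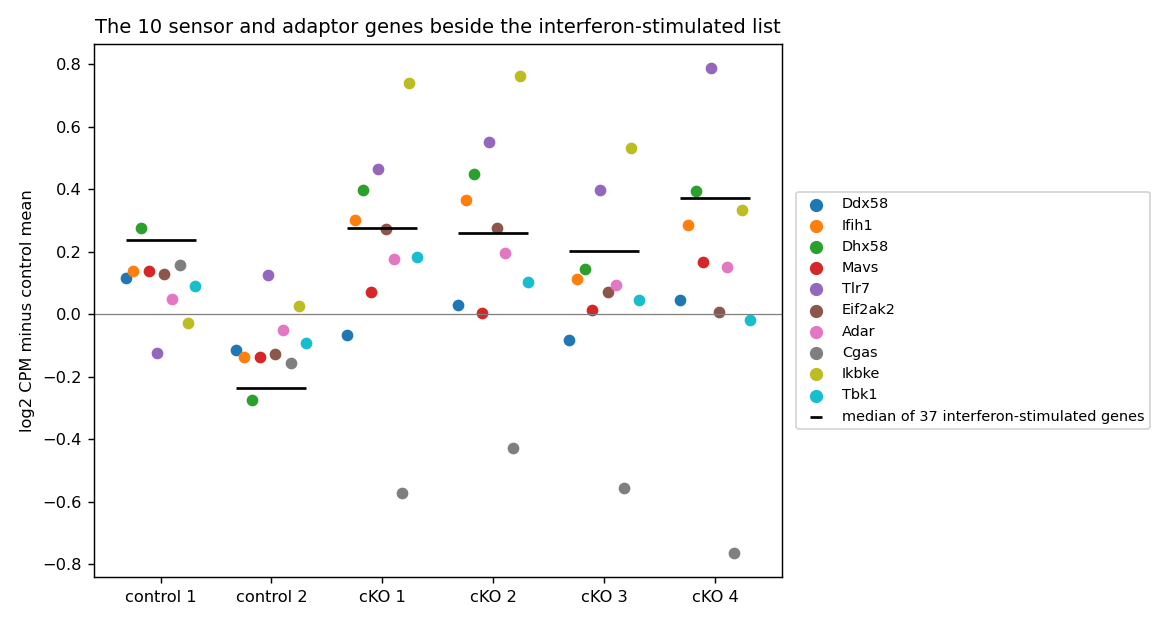
Log2 CPM of each of the 10 genes minus the mean of the 2 controls (vertical axis) in each library, with the median of the 37 interferon-stimulated genes as a black bar. The bar is at 0.24 in control 1, at -0.24 in control 2 and between 0.20 and 0.37 in Cmtr1 cKO 1 to 4, and in control 2 every gene but Tlr7 and Ikbke lies below 0.

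Of the 37 interferon-stimulated genes 8 were higher and 1 lower by edgeR (all genes: 4.66% and 6.77%), with a median log2 fold change of 0.25. Those called with the smallest p were Xaf1, a pro-apoptotic factor (0.87 ± 0.12, SE), the antiviral GTPase gene Mx2 (1.14 ± 0.27), the ubiquitin ligase gene Herc6 (0.73 ± 0.17), Ifit1, whose product binds RNA caps that lack ribose methylation (1.05 ± 0.23), and Isg15, a ubiquitin-like modifier (0.75 ± 0.19), while Ifit2 fell by 0.31 ± 0.077. Xaf1 went from 35.0 and 25.1 CPM to 54.5, 58.2, 50.04 and 56.7 CPM and was called in all 14 alternatives. Without control 1 the list had 13 genes higher at a median of 0.63, and without control 2 it had 1 higher at a median of 0.024. Without Cmtr1 cKO 1 or 2 it had 1 and 3 higher, and 4 with the outside-exon share in the model (Herc6 at 0.21 and Ifit2 at -0.17, neither called). Without control 2 the calls of Mx2, Herc6, Ifit1, Isg15 and Ifit2 ended (adjusted p = 0.225, 0.206, 0.147, 0.195 and 0.258), and so did those of Herc6, Isg15 and Ifit2 without control 1 (0.0808, 0.176 and 0.124). Without Cmtr1 cKO 1 none of these 5 was called (adjusted p = 0.0569 to 0.105), Mx2, Ifit1 and Ifit2 were not called without Cmtr1 cKO 2 (0.059, 0.0986 and 0.0644), nor Ifit2 without Cmtr1 cKO 3 (0.0933). With the outside-exon share Mx2 and Ifit1 were not called either (0.345 and 0.266), nor Ifit1 without a filter (0.175).

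The wider pathway was described with 84 further genes in 7 groups by role, of which 78 passed the filter. By edgeR 6 were higher and 3 lower, 11.5% against the 11.4% of all genes, with a median log2 fold change of -0.0082. The list as a whole therefore stood at the background. Counts higher and lower were 4 and 0 without control 1, 1 and 0 without control 2, 5 and 2, 4 and 1, and 4 and 0 without Cmtr1 cKO 1, 2 and 3, and 10 and 9 without Cmtr1 cKO 4. Ddx60 stands in this list and among the interferon-stimulated genes. Trex1, the main DNA exonuclease of the cytosol, was listed at 0 in all 6 libraries. Reads that fall in several genes are counted for none of them, and overlap of Trex1 with other genes was not checked. The 0 therefore does not show that its RNA was absent.

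The called rises in this list included 2 DNA-sensor genes of the interferon-inducible PYHIN family, Mndal and Ifi203. Of the 8 tested genes of the DNA-sensor group 2 were higher and 0 lower, 25% called against 11.4% of all genes. Mndal went from 275 and 251 CPM to 414, 413, 409 and 393 CPM in Cmtr1 cKO 1 to 4 (0.63 ± 0.074 in log2 fold change, SE, edgeR adjusted p = 0.000599), and was called in all 14 alternatives. Ifi203 went from 317 and 309.9 CPM to 401, 416, 416 and 461 CPM (0.43 ± 0.079, SE, adjusted p = 0.00739). No library of one genotype overlapped the other for these 2 genes, as for 39% of all genes tested (18.2% with Cmtr1 cKO higher). Mndal and Ifi203 are close paralogs in 1 gene cluster, so uniquely mapped reads may be split unevenly between them and their relatives. Without either control Ifi203 was not called (adjusted p = 0.0767 and 0.107). Tmem173, which encodes STING, the adaptor of cGAS, stood at 153 and 127 CPM and at 114, 127, 137 and 139 CPM (-0.12 ± 0.097, SE, adjusted p = 0.423). It is named for that role, and after its values were seen. Other PYHIN genes of the list, also named after their values were seen, did not rise alike. Aim2 was not called (0.13 ± 0.11, SE, edgeR adjusted p = 0.456). Ifi204 and Ifi205, under the filter with at most 12 reads a library, went the other way. Their means were 0.573 and 0.185 CPM without Cre and 0.339 and 0.0888 CPM with it.

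Among 18 regulators of RIG-I and MAVS 2 rose and 0 fell, 11.1% called against 11.4% of all genes. Nlrc3, a negative regulator of STING and T cell signalling, went from 133 and 135 CPM to 217, 200.3, 191 and 167 CPM (0.54 ± 0.096, SE, edgeR adjusted p = 0.0068). Trim14, a MAVS-associated adaptor, rose by 0.39 ± 0.090 (SE, adjusted p = 0.0205). Nlrc5, the most abundant of this group per length at a mean of 49.2 FPKM, had 0.093 ± 0.11 (SE, adjusted p = 0.595). With the outside-exon share in the model Nlrc3 was at 0.27 (adjusted p = 0.0332), Trim14 was at 0.23 and not called (0.254), and Nlrc5 turned to -0.18 (0.315). With 1 control left out neither Nlrc3 (0.0902 and 0.0916) nor Trim14 (0.119 and 0.169) was called, and Trim14 was not called without Cmtr1 cKO 3 (0.0571).

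Among 14 tested partners of TBK1 and the IKK kinases, including the IRF factors they act on, 2 rose and 0 fell. The share called was 14.3%, against 11.4% of all genes. Tank, the scaffold that binds TBK1 and IKK-epsilon, went from 105 and 110.2 CPM to 136, 137, 131 and 126 CPM (0.30 ± 0.069, SE, edgeR adjusted p = 0.0219). Irf7, the interferon-induced IRF, went from 86.3 and 60.4 CPM to 102, 109, 99.5 and 121 CPM (0.56 ± 0.13, SE, adjusted p = 0.0239), and was at 0.85 without control 1 and 0.34, not called, without control 2 (adjusted p = 0.0159 and 0.206). Irf3 had 0.16 ± 0.074 (SE, adjusted p = 0.166). Tank was not called without control 1, control 2 or Cmtr1 cKO 1, 2 or 3 (adjusted p = 0.161, 0.128, 0.053, 0.0587 and 0.0571) or with the covariate (0.105), and Irf7 not without Cmtr1 cKO 2 (0.0545) or with the covariate (0.345).

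The group of Toll-like receptor chaperones and adaptors also holds the signal relays Irak1, Irak2, Irak4 and Traf6. All 9 genes had log2 fold changes below 0, at a median of -0.22, and 1 was called. Irak1, Irak2 and Traf6 stood close to 0 (-0.0055, -0.016 and -0.024). Below 0 were 8 of 9 when scaled without ribosomal RNA and mitochondrial genes, and 7 to 9 of 9 with 1 library left out. Of all 12748 genes tested 6380 had a log2 fold change below 0. The called gene, 11.1% of the 9 against 11.4% of all genes, was Ticam1, which encodes TRIF, the adaptor of TLR3. It went from 12.9 and 14.9 CPM to 9.63, 7.89, 9.63 and 9.20 CPM (-0.61 ± 0.15 in log2 fold change, SE, edgeR adjusted p = 0.024). Hsp90b1, the chaperone gp96 that folds these receptors, had -0.21 ± 0.080 (SE, adjusted p = 0.103). The B cell and dendritic cell marker sums were lower in Cmtr1 cKO as well, and their part was not tested. With the outside-exon share in the model the median was -0.093, with 4 of the 9 above 0, and Ticam1 was not called (-0.53, adjusted p = 0.152). Ticam1 was not called either without control 1, control 2 or Cmtr1 cKO 2 or 3 (adjusted p = 0.0964, 0.229, 0.0621 and 0.0596). Myd88, the adaptor of TLR7 itself, had -0.22 ± 0.090 (SE, adjusted p = 0.122; named after its values were seen).

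Of the other 3 groups, 2 had 1 gene lower and 0 had a gene higher. Called were 9.09% of the other RNA sensors and 12.5% of the genes around eIF2alpha, against 11.4% of all genes. Of 11 other RNA sensors Ddx3x, an X-linked helicase, fell from 512 and 496 CPM to 388, 419, 424 and 434 CPM (-0.28 ± 0.074, SE, edgeR adjusted p = 0.0356). Of 8 genes around eIF2alpha, the target of PKR, Ppp1r15b, a subunit of its phosphatase, fell from 228 CPM in both controls to 169, 171, 176 and 194 CPM (-0.36 ± 0.074, SE, adjusted p = 0.0121), and the PKR inhibitor gene Dnajc3 had -0.20 ± 0.066 (SE, adjusted p = 0.0695). Of 10 genes for nucleic acid clearance 0 were called by edgeR, by DESeq2 or by limma, and 0 had an unadjusted p under 0.05, among them Samhd1, a nucleotide phosphohydrolase (0.069 ± 0.071, SE). Ddx3x and Ppp1r15b were not called without control 1, without control 2 (adjusted p = 0.214 and 0.199, and 0.114 and 0.142), without Cmtr1 cKO 3 (0.104 and 0.0533) or with the covariate (0.0998 and 0.0728, Ppp1r15b at -0.21), nor Ddx3x without Cmtr1 cKO 1 or 2 (0.0946 and 0.0865).

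**Figure D5:**
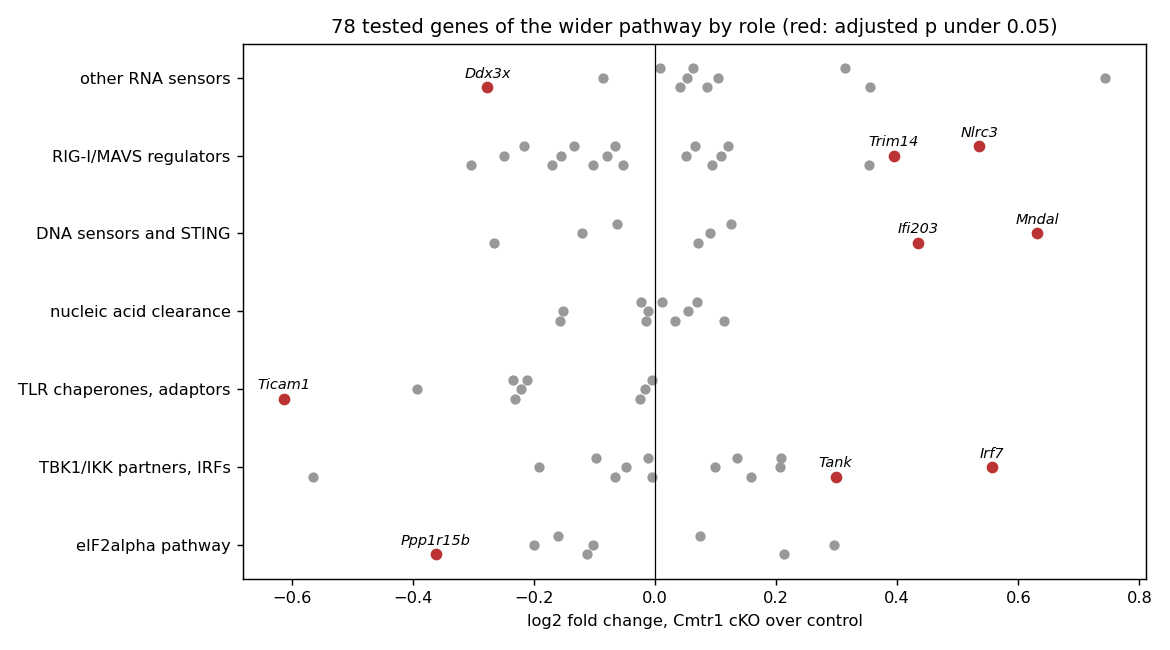
Log2 fold change, Cmtr1 cKO over control (horizontal axis), of the 78 tested genes of the wider pathway, 1 point a gene, in 7 rows by role, with the 9 genes called at an adjusted p under 0.05 in red and named. The row of Toll-like receptor chaperones and adaptors also holds Irak1, Irak2, Irak4 and Traf6. It lies wholly left of 0 in this scaling (8 of 9 genes without ribosomal RNA and mitochondrial genes), and Mndal lies furthest right among the named genes.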

How the data were processed

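The deposited values are whole-number read counts per gene in the layout of STAR's gene table, with 1 unstranded and 2 stranded columns. Per the submitters' processing notes, STAR 2.5.2b and edgeR were used and the build is mm10 (GRCm38); the sources used here do not give the annotation behind the counts. Column 4 was used, the strand with 18.7 to 22.7 times the reads of the other in 5 libraries and 5.57 times in Cmtr1 cKO 3, which stands apart. IDs were matched without versions to GENCODE vM21 (98.9% of 46983). Rows that name no gene (52.1% to 62.0% of reads) stayed out of library sizes. By the files' own row names, reads mapped to several places or to several genes are among these.

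Genes passing filterByExpr (12748) were TMM-scaled and tested for genotype with edgeR 4.0.16 (R 4.3.3; glmQLFit robust, glmQLFTest), with Benjamini-Hochberg adjustment and a call at adjusted p under 0.05. The SE is the absolute log2 fold change divided by the square root of F. Alternatives used DESeq2 1.42.0 and limma 3.58.1. On simulated data for 12559 genes the test recovered 56.9%, 78.1% and 98.5% of genes altered by 0.5, 1 and 2 (log2), and it called 13 of 12365 unaltered ones. The simulated counts were drawn independently for each gene, with no difference between libraries but depth and the set changes. The real libraries also differ in outside-exon share and strand ratio, so these rates need not hold for them. Whether each library is a separate mouse is not in the labels, so the p-values reflect only how far these samples spread, possibly for technical reasons. The members and gene lists were chosen with earlier results of these data known. Of the wider lists the text names up to 4 called genes with the smallest p per role (6 for the interferon list) and the gene highest in FPKM.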

Additional observations from a re-analysis of the deposited data

Results flagged for a closer look

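The B cell and the CD8 T and NK cell marker sums had 1 library far from the other 3 of the Cmtr1 cKO group, by the gap to the nearest library over the whole range, above Dixon's 95% critical value for 4 libraries, which chance passes in about 1 group in 20. The B cell marker sum gave 0.902, with Cmtr1 cKO 2 at 336 CPM and the others at 292 to 296. The CD8 T and NK cell marker sum gave 0.92, with Cmtr1 cKO 4 at 41.3 CPM and the others at 35.5 to 36.0. None of the 10 members had such a library.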

How the results depend on the processing

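The 14 alternatives kept the sign of Ifih1, Dhx58, Tlr7, Adar, Cgas and Ikbke. Ddx58 turned to 0.11 without control 1 and 0.012 without Cmtr1 cKO 3, Mavs to -0.057 and Nlrc5 to -0.040 without control 2, and Eif2ak2 to -0.098, Tbk1 to -0.083 and Nlrc5 to -0.18 with the outside-exon covariate; the cause was not tested. With 1 library left out, Ddx58 ranged from -0.12 to 0.11, Mavs from -0.057 to 0.21 and Nlrc5 from -0.040 to 0.27. Tlr7 was called in 9 alternatives, Cgas in 6, Ikbke in 12, Ifih1 in 3, and Dhx58, Eif2ak2 and Adar in 1 each. The only call of Dhx58, Eif2ak2 and Adar came from the replicate block, which also called Tlr7, Cgas, Ikbke and Ifih1.

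With 1 library left out, all genes called higher ranged from 39 to 1940 and lower from 154 to 1940, members higher from 0 to 3 and lower from 0 to 1 (0 without either control, where 5 and 3 members had an unadjusted edgeR p under 0.05), pathway genes from 1 to 10 and from 0 to 9, and interferon-stimulated genes from 1 to 13 and from 0 to 2. With limma's quality weights 1473 genes were higher and 1666 lower, 5 pathway genes lower and 13 interferon-stimulated genes higher. Without a filter 1167 genes were higher, 14 interferon-stimulated ones among them. With the covariate 320 were higher and 346 lower, 0 pathway genes lower, and 4 interferon-stimulated genes higher and 0 lower. On unstranded counts 1 member was higher and 0 lower, and 0 were lower in DESeq2 or without ribosomal RNA and mitochondrial genes. The same replicate numbers do not pair the libraries by any label (correlations of deviations 0.121 and -0.126). With the replicate block 2394 genes were higher and 2448 lower, 6 members higher, 13 pathway genes higher and 15 lower, and 17 interferon-stimulated genes higher and 2 lower. In that fit Cmtr1 cKO 3 and 4 each have a replicate term of their own. The genotype difference then rests on replicates 1 and 2 alone, and the spread is poorly estimated. This fit is counted among the 14 alternatives throughout. With 1 control left out, the other is assumed to vary like the Cmtr1 cKO libraries. Cgas and Tlr7 rest on few reads.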
